A study of Homo sapiens with 6 samples.

Results

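The RAB small GTPases were examined in RNA-seq of 786-O cells, a line established from a human clear cell renal cell carcinoma, in which the transcription factor NFE2L3 had been knocked down. Members were taken by name: every row of the count table whose symbol is RAB followed by a number and at most 1 letter from A to D. This gave 63 of 56303 genes. The naming rule itself uses no measured value, but the family was chosen with earlier results of these data known. The NFE2L3 knockdown group (siNFE2L3, 3 libraries, labelled 48 h) had received an siRNA against NFE2L3, and the control group (siControl, 3 libraries, labelled 0 h) a control siRNA. Because the labelled time differed with the siRNA, the effects of the siRNA and of the time cannot be told apart. The genotype labels of 2 knockdown samples read NFE2L4 and NFE2L5, while their titles and source names read NFE2L3, and the sources do not say which NFE2L3 siRNA was used. All 6 libraries came from 1 cell line, and, a general remark on independent trials in the methods aside, no source ties each library to a separate culture, so p-values cover library-to-library spread only, which may be purely technical.

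RAB proteins are small GTPases that mark the membranes of the secretory and endocytic pathways. Each is loaded with GTP by an exchange factor (GEF), recruits effectors such as tethers and motor adaptors while it is in the GTP form, and is switched off by a GTPase-activating protein (GAP). Prenyl groups anchor RAB proteins in membranes, and GDP dissociation inhibitors carry the inactive proteins through the cytosol between rounds. In kidney tubule cells, RAB proteins are known for the apical uptake and recycling of filtered proteins and for the delivery of transporters to the cell surface.

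The libraries held 55586867, 56806368 and 51828446 counts in the siNFE2L3 group, against 53051297, 57391929 and 55338187 in the siControl group. NFE2L3 itself averaged 19.8 CPM (counts scaled to library size) in siNFE2L3 and 114.7 CPM in siControl cells, a log2 fold change of -2.54. The renal transcription factor PAX8 was present at 216.8 CPM in siNFE2L3 and 240.4 CPM in siControl cells and was called lower (log2 fold change -0.15). Epithelial markers moved both ways: the keratins KRT8 and KRT18 were called lower (-0.32 and -0.25), EPCAM was called higher (0.28), KRT19 was at 0.11 and not called, and CDH1 was below 1 CPM. Of the mesenchymal markers, CDH2 was called lower (-0.39) and VIM was not called. The part of these marker changes in the RAB results was not tested. The tubule marker LRP2 and the endothelial marker CDH5 were at 0 counts. Of the leukocyte markers, PTPRC and CD3E were below 1 CPM in both groups, whereas CD68, a lysosomal protein that is not confined to macrophages, was at 117.6 CPM in siNFE2L3 and 131.9 CPM in siControl cells and was called lower (-0.17). CA9, a hypoxia target usually raised in clear cell carcinoma, was near 0, at 0.062 CPM in siNFE2L3 and 0.018 CPM in siControl cells.

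Before the changes, the level of each member was ranked by RPKM (reads scaled for exon length and library size), a measure that permits comparison between genes. RAB7A, the GTPase of late endosomes and lysosomes, was the most abundant member. RAB7A had 225.0, 213.8 and 227.0 RPKM in siNFE2L3 and 198.3, 214.5 and 211.1 RPKM in siControl libraries. Its groups overlapped, and its log2 fold change of 0.09 (SE 0.0403) did not pass the test at an adjusted p of 0.0894 by the edgeR quasi-likelihood test. RAB13, which acts in the transport of junction proteins to the surface of epithelial cells, followed with 149.7, 165.0 and 156.7 RPKM in siNFE2L3 and 132.2, 135.6 and 133.7 RPKM in siControl libraries. RAB10, a GTPase of exocytic and basolateral transport, came next, with means of 63.4 ± 1.57 RPKM in siNFE2L3 and 73.2 ± 2.61 RPKM in siControl cells (SD, n = 3 each). RAB6A, the main RAB of the Golgi, had 42.6, 43.0 and 41.2 RPKM in siNFE2L3 and 43.7, 43.7 and 45.0 RPKM in siControl libraries. Every siNFE2L3 library lay below every siControl library for RAB6A, but its log2 fold change of -0.06 was not called (adjusted p = 0.262). RAB5C and RAB5A, sister GTPases of the early endosome, held the next places. RAB5C had 37.0, 34.9 and 38.05 RPKM in siNFE2L3 and 33.7, 40.9 and 36.1 RPKM in siControl libraries, and its groups overlapped (log2 fold change -0.01, 95% interval -0.12 to 0.10). On its own strand RAB5C shares 794 of its 2761 exon bases with CTD-2132N18.3. That gene averaged 100.1 CPM, beside 101.5 CPM for RAB5C, with a log2 fold change of 0.00088. The part of shared reads in the RAB5C values was not tested.

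**Figure D1:**
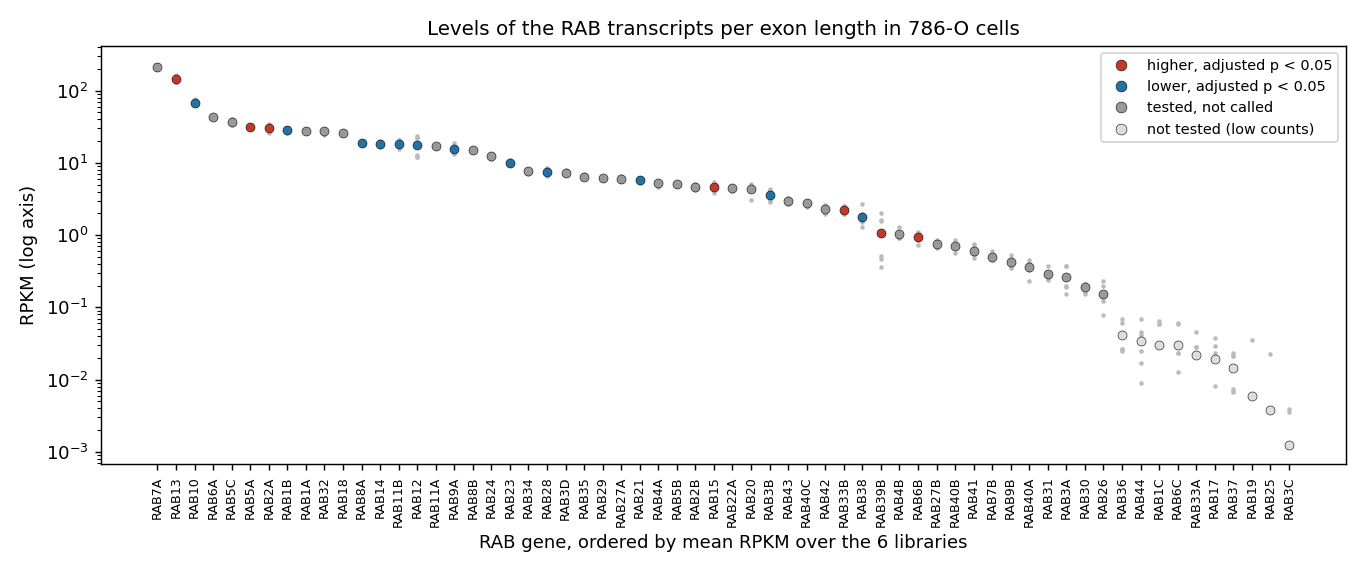
Levels of the RAB genes in RPKM on a log axis, ordered by mean level, large points giving the mean over the 6 libraries, coloured by call, and small grey points the libraries. RAB39A, which had no read in any library, is not drawn, and neither are library values of 0; RAB7A, RAB13 and RAB10 head the order, and the other members not tested lie at its low end.

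The summed level of the 63 members was 919.1, 924.2 and 928.7 RPKM in siNFE2L3 libraries, against 896.0, 929.5 and 929.7 RPKM in siControl libraries, and the groups overlapped. The makeup of that sum differed. RAB13 supplied 16.3%, 17.9% and 16.9% of it in siNFE2L3 libraries and 14.8%, 14.6% and 14.4% in siControl libraries. RAB10 supplied 6.83%, 7.06% and 6.71% in siNFE2L3 libraries and 8.16%, 7.61% and 8.17% in siControl libraries. Both shares were separated between the groups, RAB13 upwards and RAB10 downwards in siNFE2L3 cells. RAB7A, RAB13 and RAB10 together made up 47.6% to 48.1% of the sum in siNFE2L3 libraries, against 45.0% to 45.3% in siControl libraries.

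At the other end, 11 members did not pass the filter on low counts, with at most 17 counts in any library. They were RAB25, RAB17, RAB37, RAB3C, RAB19, RAB33A, RAB36, RAB39A, RAB44, RAB6C and RAB1C. RAB25 and RAB17 are known from polarised epithelia, and RAB37 and RAB3C from regulated secretion. RAB6C and RAB1C are near-identical copies of RAB6A and RAB1A or RAB1B, and the sources do not say how reads matching several genes were counted.

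Of the 52 members tested, 12 were lower and 7 were higher in siNFE2L3 cells at an adjusted p under 0.05 (edgeR quasi-likelihood test, Benjamini-Hochberg adjustment over 19916 genes), and 33 were not called. The lower members were 23.1% of those tested, where 14.0% of all tested genes were lower. The higher members were 13.5%, close to the 12.7% of all tested genes that were higher. The tested members were more abundant than the average gene, with a median of 25.4 CPM against 8.73 CPM over all tested genes, and the part of read depth in the counts of calls was not tested. Only RAB39B changed at least 2-fold with an unadjusted p under 0.05, and it was higher, where 0.723% of all tested genes passed that rule upwards. No member passed it downwards, where 0.377% of all tested genes did. The groups did not overlap for 17 members lower in siNFE2L3 (32.7% of those tested, against 20.4% of all tested genes) and for 8 members higher (15.4%, against 19.1%). In bulk RNA, less transcript per cell and fewer cells with the transcript cannot be told apart. The median log2 fold change of the members was -0.05, against -0.00066 over all tested genes, and their median absolute change was 0.146, against 0.157. RAB39B and RAB12 were the called members that differed by at least 1.5-fold, and 34 of the 52 had an absolute log2 fold change under 0.2.

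**Figure D2:**
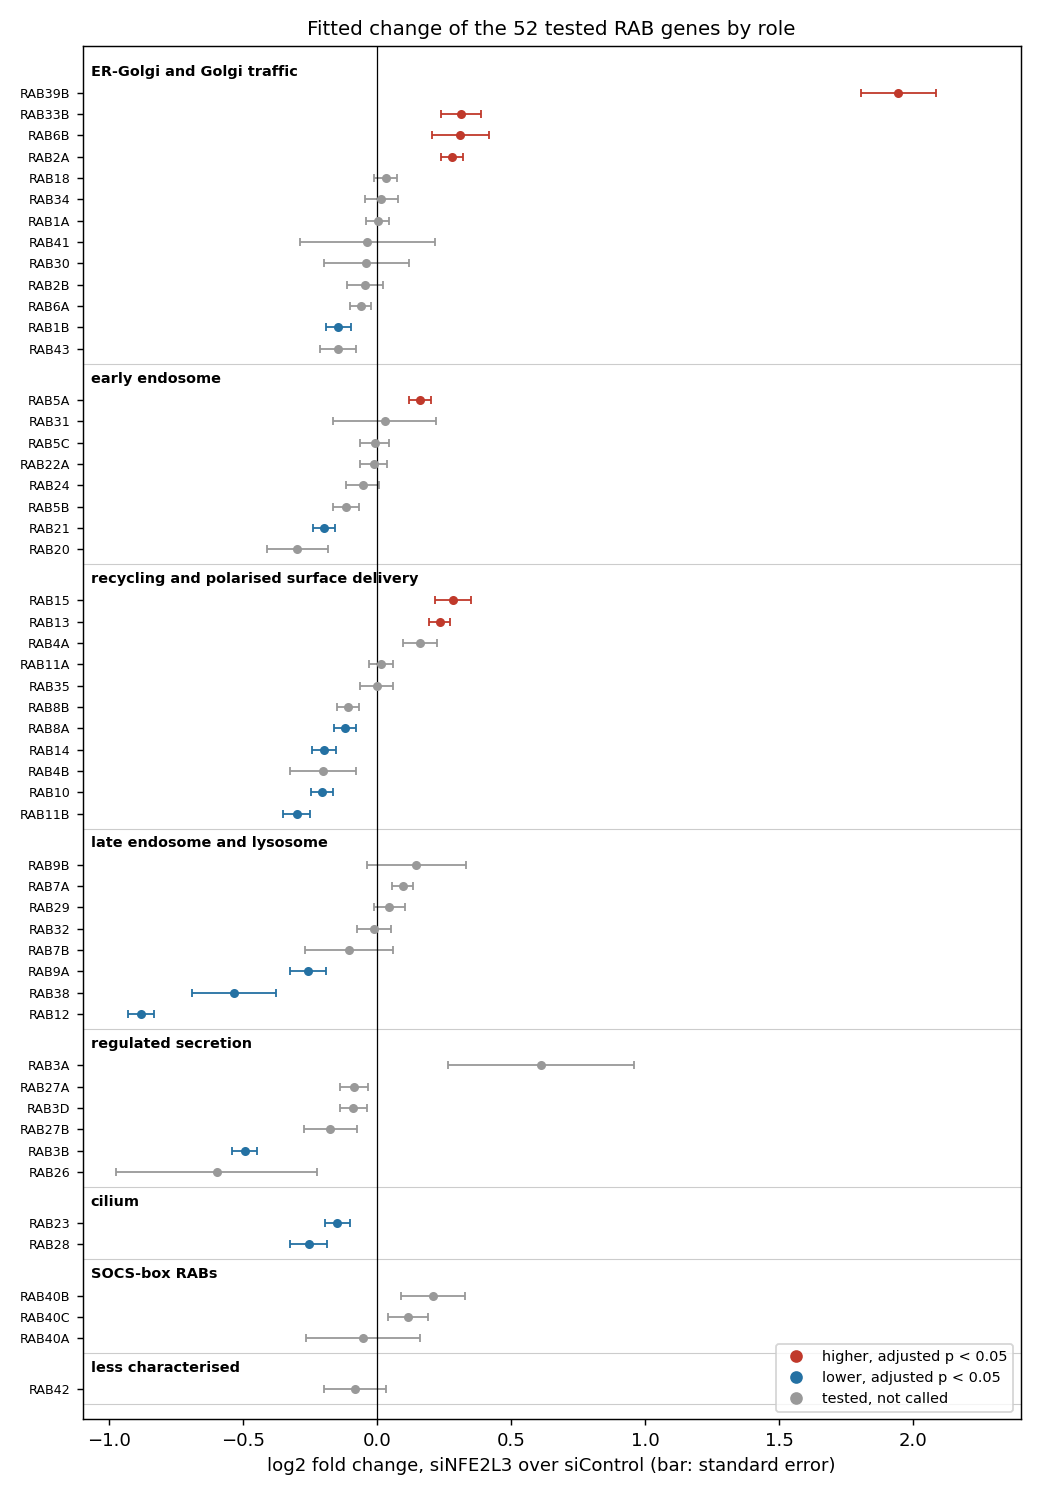
Fitted log2 fold change, siNFE2L3 over siControl, of the 52 tested RAB genes, grouped by known role. Points are fitted values, bars are standard errors, and colour marks an adjusted p under 0.05; RAB39B at 1.94 and RAB12 at -0.88 lie farthest from 0 among the called members.

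Of 19 members that act between the endoplasmic reticulum and the Golgi or within the Golgi, 13 were tested, 4 were higher (30.8%, beside 12.7% of all tested genes), 1 was lower (7.69%, beside 14.0%) and 8 were not called. RAB39B showed the largest rise. This GTPase is known from neurons, where it supports receptor traffic out of the endoplasmic reticulum, and its loss causes X-linked intellectual disability with early parkinsonism. It had 314, 396 and 282 counts in siNFE2L3 libraries, against 68, 104 and 90 counts in siControl libraries. In CPM these were 5.62, 7.04 and 5.49 in siNFE2L3, against 1.28, 1.80 and 1.62 in siControl libraries. Every siNFE2L3 library was far above every siControl library, and the fitted difference was 3.85-fold (log2 fold change 1.94, SE 0.141, adjusted p = 1.88e-10). Per length RAB39B still ranked low, at 1.72 ± 0.246 RPKM in siNFE2L3 and 0.447 ± 0.0749 RPKM in siControl cells (SD, n = 3 each), beside family sums of 924.0 and 918.4 RPKM in siNFE2L3 and siControl cells.

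RAB39B lies on chromosome X from 155258241 to 155264589 on the minus strand (GRCh38), and no exon of another gene overlapped its exons. Of the genes within 250 kb, 10 were tested and 1 was called, the deubiquitinase gene BRCC3, at a log2 fold change of 0.16 (adjusted p = 0.0308). The 7 neighbours with at least 1 CPM had log2 fold changes between -0.16 and 0.16, and the nearest, the prefoldin subunit gene VBP1, was at -0.12 (adjusted p = 0.138). These neighbours were looked up after the rise of RAB39B had been seen. The others, all under 1 CPM, were RP11-218L14.4 at 0.99 (adjusted p = 0.0760), TMLHE-AS1 at 0.45 and F8A2 at -0.10, none of them called. The threshold of 1 CPM was set after these values had been seen.

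The other rises in the Golgi group were smaller. RAB2A, which acts between the endoplasmic reticulum and the Golgi, had 180.1, 185.1 and 192.3 CPM in siNFE2L3 and 157.7, 155.1 and 147.4 CPM in siControl libraries. The groups were well apart, with a 1.21-fold difference (log2 fold change 0.28, SE 0.0414, adjusted p = 1.37e-05). RAB33B, a Golgi GTPase that binds the autophagy protein ATG16L1, had 12.9, 12.9 and 11.8 CPM in siNFE2L3 and 9.87, 9.71 and 10.7 CPM in siControl libraries. RAB6B, the neuronal relative of RAB6A, had 5.83, 6.49 and 6.58 CPM in siNFE2L3 and 5.69, 5.22 and 4.34 CPM in siControl libraries. Both had a log2 fold change of 0.31, with adjusted p-values of 0.00253 for RAB33B and 0.0328 for RAB6B. The margin for RAB6B was narrow, and its call was lost without siNFE2L3 replicate 2, siNFE2L3 replicate 3 or siControl replicate 3 (adjusted p up to 0.199). RAB1B, which governs the first step out of the endoplasmic reticulum, was the lower member of this group, at 54.3 ± 2.71 CPM in siNFE2L3 and 60.1 ± 1.11 CPM in siControl cells (SD, n = 3 each; log2 fold change -0.15, adjusted p = 0.0206). Without siNFE2L3 replicate 1 or 2 or siControl replicate 2 or 3 its adjusted p was 0.0502 to 0.150. Its near relative RAB1A was at a log2 fold change of 0.00 with a 95% interval of -0.08 to 0.09.

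Among 8 tested members of the early endosome, 1 was higher and 1 lower (12.5% each, beside 12.7% and 14.0% of all tested genes), and 6 were not called. RAB5A, which drives the fusion of early endosomes, had 122.6, 128.4 and 123.5 CPM in siNFE2L3, against 112.6, 112.1 and 110.8 CPM in siControl libraries. The groups were separated, and the log2 fold change was 0.16 (SE 0.0399, adjusted p = 0.00385). RAB21, which accompanies integrins through endosomes, was lower, with 84.7, 90.8 and 86.2 CPM in siNFE2L3 and 99.5, 100.3 and 100.5 CPM in siControl libraries (log2 fold change -0.20, adjusted p = 7.98e-04). RAB20 had the largest fitted change of this group, at -0.30, but its groups overlapped and it did not pass the test (adjusted p = 0.057). RAB5B had a log2 fold change of -0.12 and did not pass the test (adjusted p = 0.0779).

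The recycling and surface delivery group held 11 tested members, of which 4 were lower (36.4%, beside 14.0% of all tested genes), 2 were higher (18.2%, beside 12.7%) and 5 were not called. RAB11B, a GTPase of the recycling endosome, had 40.6, 42.9 and 38.3 CPM in siNFE2L3 and 50.7, 48.0 and 51.5 CPM in siControl libraries, without overlap (log2 fold change -0.30, SE 0.0507, adjusted p = 6.5e-05). RAB11A, its better known sister, was at a log2 fold change of 0.01 with a 95% interval of -0.08 to 0.10. RAB10 had 227.8, 236.8 and 226.3 CPM in siNFE2L3 and 265.5, 256.7 and 275.7 CPM in siControl libraries. Each siNFE2L3 value of RAB10 lay below each siControl value, and the log2 fold change was -0.21 (SE 0.0400, adjusted p = 3.15e-04). RAB14, which links early endosomes with the Golgi and the surface, was at 76.1, 71.9 and 73.1 CPM in siNFE2L3 and 83.0, 87.6 and 83.3 CPM in siControl libraries (log2 fold change -0.20, adjusted p = 0.00107). RAB8A, a partner of RAB10 in exocytosis, was lower by the smallest margin of the called members, at a log2 fold change of -0.12 (adjusted p = 0.0282). That call was lost in 6 of the alternatives tried, with adjusted p-values of 0.0515 to 0.120, among them those without siNFE2L3 replicate 1 or 3 or siControl replicate 2 or 3.

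RAB13 was the most abundant of the called members. Its levels were 411.8, 453.9 and 431.2 CPM in siNFE2L3 and 363.7, 372.9 and 367.8 CPM in siControl libraries, a 1.17-fold difference without overlap (log2 fold change 0.23, SE 0.0404, adjusted p = 9.8e-05). RAB15, a regulator of endocytic recycling, had 23.7, 21.1 and 21.5 CPM in siNFE2L3 and 16.8, 17.6 and 20.1 CPM in siControl libraries (log2 fold change 0.28, adjusted p = 0.00289). Within this group, then, RAB13 and RAB15 were higher while RAB8A, RAB10, RAB11B and RAB14 were lower.

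**Figure D3:**
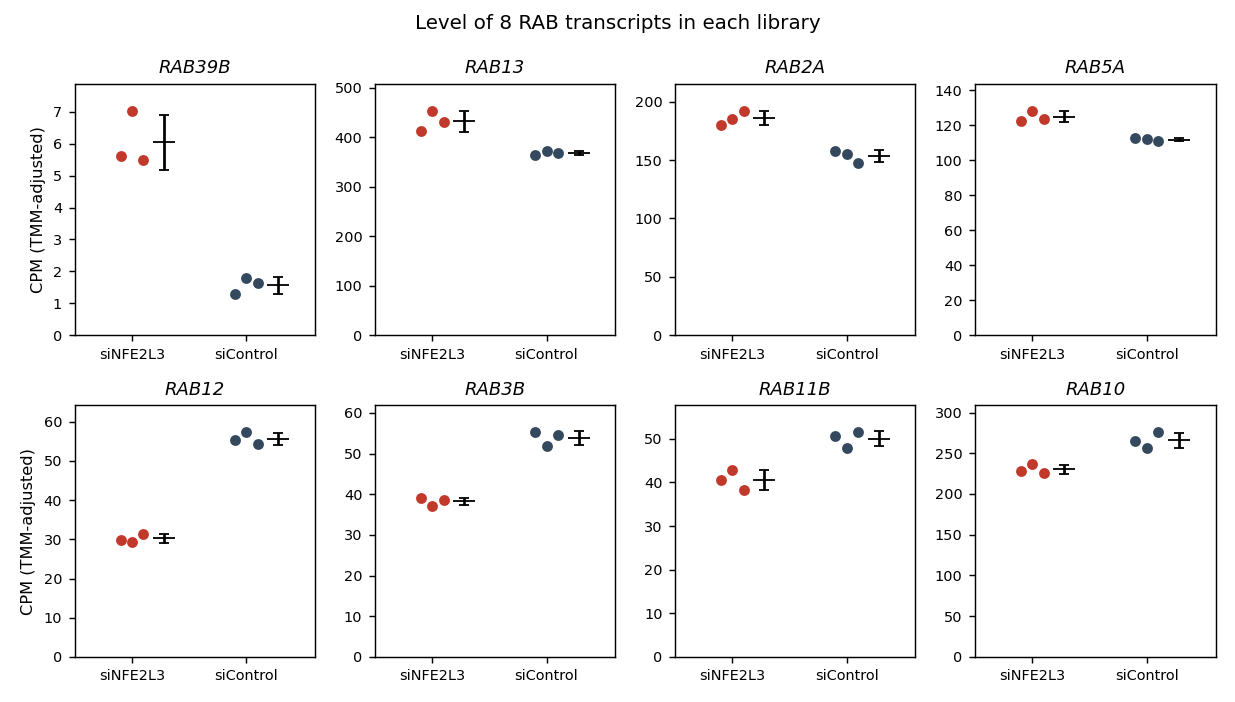
CPM in each of the 3 siNFE2L3 and 3 siControl libraries for 8 called RAB genes, with rises above and falls below, each panel with its own axis from 0. Points are libraries and the black bars give the mean and SD; RAB39B and RAB12 show the widest gaps between the groups.

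All 8 members of late endosomes, lysosomes and lysosome-related organelles were tested, of which 3 were lower (37.5%, beside 14.0% of all tested genes), none was higher (beside 12.7%) and 5 were not called. With so few members in a role group, 1 gene moves such a share widely. RAB12, which directs transferrin receptor from recycling endosomes to lysosomes and is phosphorylated by the kinase LRRK2, showed the largest fall. It had 1669, 1652 and 1618 counts in siNFE2L3 libraries, against 2937, 3316 and 3023 counts in siControl libraries. In CPM these were 29.8, 29.4 and 31.5 in siNFE2L3, against 55.3, 57.3 and 54.4 in siControl libraries. Replicates lay close together and the groups far apart, a 1.84-fold lower level in siNFE2L3 cells (log2 fold change -0.88, SE 0.0488, adjusted p = 1.62e-12).

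RAB12 lies on chromosome 18 from 8609445 to 8639381 on the plus strand (GRCh38), with 185 of its 2467 exon bases shared with the opposite-strand gene RP11-661O13.1. That gene averaged 18.6 CPM and had a log2 fold change of -0.90 (adjusted p = 5.02e-11). Whether counting used strand is not stated in the sources, and the part of shared reads in either value was not tested. Of the other tested genes within 250 kb, PTPRM, 203 kb away, was called lower (-0.32, adjusted p = 8.23e-07). MTCL1 was at 0.05 (adjusted p = 0.337), and the scarce transcripts GACAT2 and RP11-789C17.1, both under 1 CPM, were at 0.22 and -0.51 and not called. These neighbours too were looked up after the values had been seen.

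RAB38, which delivers cargo to melanosomes and other lysosome-related organelles, was scarce, with 124, 132 and 98 counts in siNFE2L3 and 136, 168 and 218 counts in siControl libraries. In CPM these were 2.22, 2.35 and 1.91 in siNFE2L3, against 2.56, 2.90 and 3.92 in siControl libraries. The groups met closely and siControl replicate 3 was the highest, with a log2 fold change of -0.54 (SE 0.158, adjusted p = 0.0128). The call was lost without siNFE2L3 replicate 3 (log2 fold change -0.46, adjusted p = 0.0737) or siControl replicate 3 (-0.34, adjusted p = 0.149). RAB9A, which returns mannose 6-phosphate receptors from late endosomes to the Golgi, was at 29.4, 31.9 and 27.9 CPM in siNFE2L3 and 31.6, 35.9 and 39.4 CPM in siControl libraries. RAB9A was the only called member whose groups overlapped (log2 fold change -0.26, SE 0.0662, adjusted p = 0.0045). RAB32, a partner of RAB38 in organelle biogenesis, was at a log2 fold change of -0.01 with a 95% interval of -0.14 to 0.11.

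Of 6 tested members of regulated secretion, RAB3B was lower (16.7%, beside 14.0% of all tested genes) and 5 were not called. RAB3B, which sits on secretory vesicles, had 39.0, 37.2 and 38.6 CPM in siNFE2L3 and 55.2, 51.99 and 54.6 CPM in siControl libraries. The groups were clearly separated (log2 fold change -0.50, SE 0.0473, adjusted p = 1.78e-08). RAB3B lies on chromosome 1 from 51907956 to 51990764 on the minus strand (GRCh38) and shares no exon with another gene. RAB3A and RAB26 had fitted values farther from 0 than RAB3B, at 0.61 and -0.60, but rested on few reads. RAB26 had 11, 20 and 18 counts in siNFE2L3 and 26, 33 and 17 counts in siControl libraries (adjusted p = 0.26). RAB3A had 38, 38 and 18 counts in siNFE2L3 and 26, 16 and 20 counts in siControl libraries (adjusted p = 0.211). The groups overlapped for both genes.

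Both members placed in the cilium group were lower in siNFE2L3 cells, where 14.0% of all tested genes were. Each member was placed in 1 role group only, so this group need not hold every RAB protein of the cilium. RAB28, which is linked to cone-rod dystrophy, had 14.4, 16.3 and 15.02 CPM in siNFE2L3 and 16.7, 18.9 and 19.0 CPM in siControl libraries (log2 fold change -0.26, SE 0.0686, adjusted p = 0.00618). RAB23, a negative regulator of Hedgehog signalling in the mouse, was at 46.7 ± 0.876 CPM in siNFE2L3 and 51.8 ± 1.79 CPM in siControl cells (SD, n = 3 each; log2 fold change -0.15, adjusted p = 0.0177). Its adjusted p was 0.0506 to 0.0837 without siNFE2L3 replicate 2 or 3 or siControl replicate 3. Over 2842 of its 4926 exon bases RAB23 overlaps BAG2 on the opposite strand, which averaged 23.5 CPM and had a log2 fold change of -0.40. The 3 RAB40 genes, whose products carry a SOCS box and join ubiquitin ligases, were not called, with log2 fold changes from -0.05 to 0.21.

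Overlap with other genes touched 9 of the 19 called members, beside 25 of the 52 tested members. Among the called members it was only on the opposite strand in 8 cases. For RAB11B, 306 bases are shared with RAB11B-AS1 (28.8 CPM, log2 fold change -0.27). For RAB1B, 265 bases are shared with RP11-867G23.3 (37.7 CPM, log2 fold change -0.15) and 589 with RP11-867G23.4 (10.4 CPM, -0.21). RAB8A shares 1960 bases with CTD-2231E14.8 (34.8 CPM, log2 fold change -0.17) and, on its own strand, 207 bases with HSH2D (0.553 CPM). For these opposite-strand partners of RAB11B, RAB1B and RAB8A the change had the sign of the member's. RAB6B shares 381 bases with SRPRB, whose level of 22.3 CPM was above its own and whose log2 fold change was -0.13, opposite in sign to that of RAB6B. RAB21 shares 1431 bases with RP11-2H8.2 (0.493 CPM), whose fitted value of 0.49 was likewise opposite in sign. The part of shared reads in these values was not tested.

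Close relatives were then set against each other within each library, as the log2 ratio of their RPKM values, for 18 pairs. In 9 pairs the ratios of the groups did not overlap. This gives p = 0.1 in a two-sided exact permutation test, the smallest value that 3 against 3 libraries allow. After adjustment over the 18 pairs it was 0.2. Some genes recur in several pairs, and the share among pairs of other genes was not determined. Of all tested genes taken singly, 20.4% were lower and 19.1% higher without overlap. No pair had both members called in opposite directions. The log2 ratio of RAB11A to RAB11B was 0.09, -0.06 and 0.19 in siNFE2L3 and -0.18, -0.27 and -0.27 in siControl libraries (mean ratio 1.05 in siNFE2L3 and 0.847 in siControl cells). For RAB5A over RAB5B it was 2.74, 2.79 and 2.75 in siNFE2L3 and 2.495, 2.483 and 2.471 in siControl libraries, a mean ratio of 6.77 in siNFE2L3 and 5.59 in siControl cells. For RAB3B over RAB3D it was -1.24, -1.28 and -1.23 in siNFE2L3 and -0.87, -0.88 and -0.79 in siControl libraries. In the RAB5 and RAB3 pairs the replicates lay closer together than the groups, whereas for RAB11A over RAB11B siNFE2L3 replicate 2 lay closer to the nearest siControl library than to siNFE2L3 replicate 3. RAB2A over RAB2B differed by 0.32 and RAB6A over RAB6B by -0.38, without overlap, and RAB8A over RAB8B by -0.01, with overlap.

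**Figure D4:**
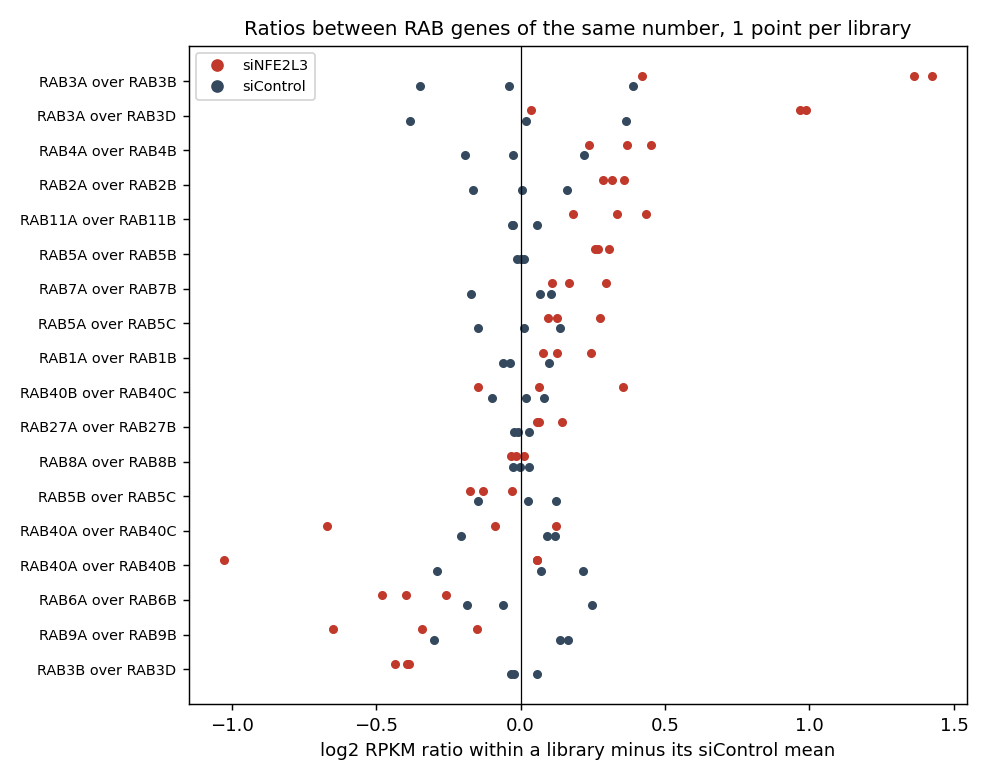
Log2 ratio of the RPKM values of related RAB genes in each library, for 18 pairs, shown relative to the mean of the siControl libraries. Points are libraries, with siNFE2L3 and siControl in separate colours and vertical offsets without meaning; 9 pairs show no overlap between the groups.

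The proteins that load, switch and carry RAB proteins were followed through 4 lists. Of 13 genes for prenylation and the membrane cycle, 2 were higher (15.4%, beside 12.7% of all tested genes), 1 was lower (7.69%, beside 14.0%) and 10 were not called. GDI2, a GDP dissociation inhibitor, averaged 436.8 ± 7.75 CPM in siNFE2L3 and 397.9 ± 9.57 CPM in siControl cells (SD, n = 3 each; log2 fold change 0.13, adjusted p = 0.00916, or 0.0675 without siNFE2L3 replicate 3). CHM, the escort protein that presents new RAB proteins for prenylation, was lower, at 22.2, 22.4 and 21.7 CPM in siNFE2L3 and 30.9, 29.0 and 26.5 CPM in siControl libraries (log2 fold change -0.38, adjusted p = 2.55e-05). The prenylating enzyme subunits RABGGTA and RABGGTB were not called, with a log2 fold change of 0.07 and 0.08.

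Of 55 genes listed as exchange factors, 12 were higher (21.8%, beside 12.7% of all tested genes), 8 were lower (14.5%, beside 14.0%) and 35 were not called. The list includes parts of complexes, such as C9orf72 and SMCR8, and a place in it does not show exchange activity. DENND2A, an exchange factor for RAB9, was higher, with a log2 fold change of 0.54 (75.0 ± 2.65 CPM in siNFE2L3 and 51.5 ± 3.61 CPM in siControl cells; adjusted p = 1.02e-08). C9orf72, part of a complex reported to act on RAB8A and RAB39B, was lower, with a log2 fold change of -0.51 (29.1 ± 2.47 CPM in siNFE2L3 and 41.4 ± 1.199 CPM in siControl cells; adjusted p = 2.36e-07). Its partner SMCR8 was higher at 0.18 (adjusted p = 0.0057). DENND1B, an exchange factor for RAB35, had a log2 fold change of -0.63 (8.45 ± 0.520 and 13.1 ± 0.613 CPM in siNFE2L3 and siControl cells; adjusted p = 7.57e-07). RAB35 itself was at 0.00, with a 95% interval of -0.12 to 0.12. DENND5A was higher at 0.32 (adjusted p = 2.87e-06) and its relative DENND5B lower at -0.26 (adjusted p = 8.98e-04). DENND3, the exchange factor for RAB12, was at 0.11 (adjusted p = 0.0492), and DENND4C, one for RAB10, was lower at -0.19 (adjusted p = 0.0061). SMCR8, DENND5B, DENND3 and DENND4C are named here after their values had been seen.

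Of 41 tested genes listed as GAPs, 10 were higher (24.4%, beside 12.7% of all tested genes), 5 were lower (12.2%, beside 14.0%) and 26 were not called. Most carry TBC names, and a place in this list does not show GAP activity. TBC1D10B had a log2 fold change of 0.40 (37.1 ± 0.817 CPM in siNFE2L3 and 28.1 ± 0.558 CPM in siControl cells; adjusted p = 1.17e-06). TBC1D9B, which acts on RAB11A, was at 0.23 (adjusted p = 1.16e-04) and SGSM2, which acts on RAB32 and RAB38, at 0.26 (adjusted p = 1.55e-04). EVI5, a binding partner of RAB11, was lower at -0.27 (adjusted p = 5.42e-04). Of 48 tested genes for effectors and RAB kinases, 9 were higher (18.8%, beside 12.7% of all tested genes), 10 were lower (20.8%, beside 14.0%) and 29 were not called. The RAB6 effector BICD2, an adaptor for the dynein motor, was at 94.4, 92.4 and 95.3 CPM in siNFE2L3 and 64.4, 64.2 and 60.4 CPM in siControl libraries (log2 fold change 0.58, adjusted p = 3.20e-10). EEA1, the tether that RAB5 recruits to early endosomes, was at 97.8, 95.8 and 101.6 CPM in siNFE2L3 and 69.9, 67.8 and 53.4 CPM in siControl libraries (log2 fold change 0.63, adjusted p = 5.46e-08). Neither effector gene had overlapping groups, and siControl replicate 3 was the lowest library for EEA1. SYTL1, an effector of RAB27, was lower at -0.61 (adjusted p = 6.74e-07). MICAL1, a RAB-binding oxidase of actin, was higher at 0.28 (adjusted p = 6.54e-05), with 305 exon bases shared on its own strand with ZBTB24. No gene of the 4 lists changed 2-fold, and the medians of the lists lay between -0.02 and 0.05.

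**Figure D5:**
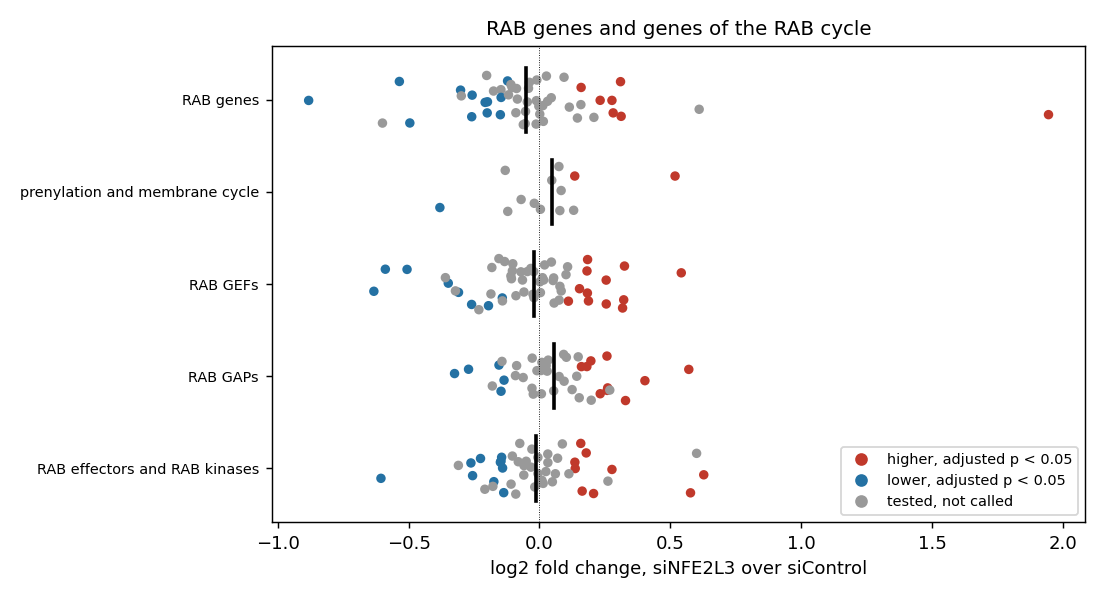
Log2 fold change, siNFE2L3 over siControl, of the tested RAB genes and of the tested genes in 4 lists of RAB regulators and effectors. Each point is a gene, vertical offsets have no meaning, black lines are medians, and colour marks an adjusted p under 0.05; calls lie on both sides of 0 in every list, and of all genes shown only RAB39B reaches 2-fold.

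NFE2L3 belongs to the CNC family of basic leucine zipper proteins, which bind the antioxidant response element together with small MAF proteins. Its core, TGACNNNGC, was searched on both strands in the RefSeq promoters (GRCh38.p14, 250 bases before to 50 after the start), where 49 members had an entry. It occurred in 9 of them (18.4%): RAB22A, RAB24, RAB32, RAB40B, RAB40C, RAB5A, RAB5B, RAB5C and RAB8B. Of all 35116 promoters 13.3% held it, and of 11161 promoters of tested genes 15.03%. All 9 members with a match were tested, among 43 tested members with an entry. Of 13 called members with an entry, only RAB5A held the core. The called members RAB39B, RAB12, RAB2A, RAB15, RAB33B and RAB38 had no entry and were not searched. All 3 early endosome sisters RAB5A, RAB5B and RAB5C carried a match, and their promoters are shown because only RAB5A among them was called. Capitals mark the match, read on the gene's strand, so that a match on the other strand appears as GCNNNGTCA. The first match base lies 128 bases before the RAB5A start, 199 and 21 bases before the RAB5B start and 73 bases before the RAB5C start. The windows are chr3:19946847-19947146 on the plus strand, chr12:55973699-55973998 on the plus strand and chr17:42154940-42155239 on the minus strand.
RAB5A: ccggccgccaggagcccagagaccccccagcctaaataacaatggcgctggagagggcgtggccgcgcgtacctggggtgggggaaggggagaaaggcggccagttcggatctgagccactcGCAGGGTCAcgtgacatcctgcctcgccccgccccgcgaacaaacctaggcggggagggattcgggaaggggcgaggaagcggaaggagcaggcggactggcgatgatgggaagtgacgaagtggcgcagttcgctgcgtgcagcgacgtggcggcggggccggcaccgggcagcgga
RAB5B: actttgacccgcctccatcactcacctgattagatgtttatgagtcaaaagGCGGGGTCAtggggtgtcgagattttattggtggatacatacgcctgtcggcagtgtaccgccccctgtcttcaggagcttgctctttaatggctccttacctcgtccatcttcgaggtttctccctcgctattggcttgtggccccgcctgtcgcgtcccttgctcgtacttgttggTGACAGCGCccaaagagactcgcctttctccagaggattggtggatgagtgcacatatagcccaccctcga
RAB5C: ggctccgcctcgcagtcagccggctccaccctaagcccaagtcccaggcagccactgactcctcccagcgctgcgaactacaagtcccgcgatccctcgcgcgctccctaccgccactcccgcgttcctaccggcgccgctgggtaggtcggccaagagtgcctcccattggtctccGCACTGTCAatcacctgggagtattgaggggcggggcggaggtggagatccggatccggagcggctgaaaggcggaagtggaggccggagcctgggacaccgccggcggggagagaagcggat
Beside these sequences stand log2 fold changes of 0.16 for RAB5A, -0.12 for RAB5B and -0.01 for RAB5C, of which RAB5A alone passed the test. A match is a string of letters and does not show binding.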

How the data were processed

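RNA was sequenced from 3 siNFE2L3 and 3 siControl libraries of 786-O cells. According to the study's supplement and the submitters' notes, the authors trimmed reads with Trimmomatic 0.36, merged reads sharing a molecular identifier, aligned them with STAR 2.5.3a to the Ensembl release 87 genome and counted exon reads with featureCounts (Subread 1.5.1). The deposited table holds raw counts per gene and the exon length. Here 19916 genes kept by filterByExpr (minimum count 10) were fitted without a replicate block in R 4.3.3 with edgeR 4.0.16 (TMM, quasi-likelihood test), and p-values were adjusted by Benjamini-Hochberg over all of them. CPM and RPKM used TMM-scaled totals. Standard errors were computed as the absolute fold change over the root of F, and exact permutation tests were run in SciPy 1.17.1. Fits were tested on simulated data. Of counts under 30, 67.6% to 69.9% were even, so halved counts were tried, as were other normalizations, filters, DESeq2 1.42.0, limma 3.58.1 and leaving out each library.

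The members, the role groups and the lists of regulators were chosen with earlier results of these data known. Values per library are given for the 8 largest called falls and rises by log2 fold change, the 6 members of highest mean RPKM and pairs called in opposite directions, and up to 4 genes per regulator list were named by smallest adjusted p. Of the genes this rule takes, 1 does not appear in the text and is not reported here.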

Additional observations from a re-analysis of the deposited data

How the results depend on the processing

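Across the alternatives the number of lower RAB genes ran from 9 to 13 and that of higher RAB genes from 6 to 9, against 12 and 7. Of the 19 called members, 14 kept the call under every alternative, with log2 fold changes of 1.82 to 2.05 for RAB39B, -0.91 to -0.86 for RAB12 and -0.52 to -0.48 for RAB3B. Calls were lost for RAB1B (adjusted p 0.0502 to 0.150; without siNFE2L3 replicate 1 or 2 or siControl replicate 2 or 3), RAB23 (0.0506 to 0.0837; without siNFE2L3 replicate 2 or 3 or siControl replicate 3), RAB38 (0.0737 to 0.149; without siNFE2L3 or siControl replicate 3), RAB6B (0.0539 to 0.199; without siNFE2L3 replicate 2 or 3 or siControl replicate 3, and with the replicate block) and RAB8A (0.0515 to 0.120; without siNFE2L3 replicate 1 or 3 or siControl replicate 2 or 3, with upper quartile scaling and with the replicate block). RAB7A was called with upper quartile scaling (log2 fold change 0.11, adjusted p = 0.0388). The replicate block gave 11 lower and 6 higher RAB genes. Same-numbered libraries did not deviate together (correlations -0.018, -0.067 and -0.026). With 3 libraries per group these values cannot settle whether the samples were paired.

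Leaving out each library gave 0 to 1 RAB genes lower by 2-fold (1 without siControl replicate 2: RAB6C, which did not pass the filter with all libraries), 1 to 2 prenylation genes higher (1 without siNFE2L3 replicate 3), 3 to 5 GAP genes lower (3 whichever siNFE2L3 library was left out) and 6 to 9 effector genes lower (6 without siNFE2L3 replicate 1). The summed level in siNFE2L3 cells was 930.3 RPKM with upper quartile scaling, against 924.0 RPKM. Uncalled members near 0 changed sign. RAB5C was at 0.0101 with upper quartile scaling and at -0.0708 to 0.0675 over left-out libraries, RAB1A at -0.0105 unscaled, -0.00286 without the filter and -0.0228 to 0.0361 over left-out libraries, and RAB11A at -0.0316 to 0.0512. The cause was not tested.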
